A study of Mus musculus with 2 samples.

Results

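The colony-stimulating factor (CSF) family was examined in ATAC-seq data from mouse bone marrow-derived macrophages (BMDMs), primary macrophages that form when marrow cells are cultured with M-CSF. It was represented by 8 genes: the ligand genes Csf1, Il34, Csf2 and Csf3 and the receptor genes Csf1r, Csf2rb, Csf2rb2 and Csf3r. A peak belonged to one of these genes when that gene had the nearest end of any protein-coding RefSeq gene, within 100 kb of the peak summit. This gave 25 peaks of 114785 in all, 12 of 37725 in the R848 list and 13 of 77060 in the untreated list.

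ATAC-seq maps open chromatin: a transposase cuts accessible DNA and tags it for sequencing, and stretches with an excess of tags are reported as peaks. The R848 group was 1 library of wild-type BMDMs stimulated for 2 h with 100 ng/ml R848, also called resiquimod, an imidazoquinoline agonist of Toll-like receptor 7. The untreated group was 1 library of wild-type BMDMs without R848. Both cultures had been raised in 20 ng/ml recombinant mouse M-CSF, the product of Csf1, so the ligand of Csf1r was supplied in both groups. The labels give no strain, age or number of mice for either culture. With 1 library per group there was no replicate check, and a peak present in 1 list and absent from the other is a description of these libraries, not a tested change.

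The family works through separate receptor systems. M-CSF and interleukin-34 both bind the receptor tyrosine kinase encoded by Csf1r, which macrophages need for survival. GM-CSF, encoded by Csf2, binds an alpha chain (Csf2ra) that pairs with the common beta chain (Csf2rb), and mice carry a second, interleukin-3-specific beta chain gene (Csf2rb2). G-CSF, encoded by Csf3, acts through Csf3r, the receptor that drives neutrophil production. Activated macrophages are known sources of M-CSF, GM-CSF and G-CSF.

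Each peak is given with the fold over background that the authors' peak caller wrote and with its pileup, the number of tags over the summit, recovered from the fold and p columns. The smallest pileup called anywhere was 5 tags in the R848 list and 4 tags in the untreated list, and the median was 8 and 7 tags. The genome-wide background was 1.36 tags in the R848 library and 0.968 in the untreated library, a ratio of 1.40 that reads as relative depth if tags were extended alike. At least 1 R848 peak was present at 63.1% and at least 1 untreated peak at 69.5% of all protein-coding genes. Of 10 macrophage markers, Csf1r among them, 10 had an R848 peak and 9 an untreated peak, Cd14 being the exception. Marker genes with a peak numbered 7 in the R848 and 5 in the untreated list of 10 for neutrophils, 2 and 3 of 8 for T and NK cells, 4 and 3 of 6 for B cells, and 8 and 6 of 8 for stromal and endothelial cells. Of these markers of other cells, Elane, Cxcr2, Cd3e, Cd3g, Cd8a, Lck and Ncr1 had no peak in either list, as had 19.8% of all protein-coding genes, while Klrb1c had 6 R848 and 4 untreated peaks, S100a9 had 4 and 2, S100a8 2 and 2, and Cd3d and Mmp8 1 and 1 each. Of the stromal and endothelial markers, Cdh5 had 7 R848 and 4 untreated peaks and Kdr 4 and 3. A peak was thus most frequent among macrophage and stromal and endothelial markers and least frequent among T and NK markers. Its presence alone does not set macrophages apart from other cell types. The part of other cells in the peaks below was not tested.

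Of the 4 genes with a promoter in the RefSeq table (Csf1, Csf2, Csf2rb2 and Csf3r, build GRCm38.p6, which is mm10), Csf1 was the one whose promoter a peak reached. The 250 bases before its start (chr3:107760470-107760719, minus strand) are shown because the R848 peak ended inside them, and those of Csf2 (chr11:54249900-54250149, minus strand) because Csf2 was the other ligand gene with R848 peaks. In Csf1 the first 2 runs of capitals mark matches to an NF-kB pattern and the last run marks the 89 bases inside the R848 peak. In Csf2 the capitals mark a C/EBP pattern and a GC box, and no peak lay there.
Csf1: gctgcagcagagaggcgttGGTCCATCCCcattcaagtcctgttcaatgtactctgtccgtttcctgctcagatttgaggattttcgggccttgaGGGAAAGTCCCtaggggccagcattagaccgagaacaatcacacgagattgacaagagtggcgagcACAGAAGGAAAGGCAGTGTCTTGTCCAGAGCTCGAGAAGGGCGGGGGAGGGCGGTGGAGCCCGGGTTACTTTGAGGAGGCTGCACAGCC
Csf2: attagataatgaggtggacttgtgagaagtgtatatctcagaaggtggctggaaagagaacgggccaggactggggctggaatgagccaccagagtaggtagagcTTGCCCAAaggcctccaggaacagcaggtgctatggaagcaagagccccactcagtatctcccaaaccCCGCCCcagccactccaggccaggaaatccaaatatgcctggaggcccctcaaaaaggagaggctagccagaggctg

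A set of 7 sequence patterns was searched on both strands in these 250 bases, in the 4 genes and in all 32851 promoters of the table. For Csf3r the window (chr4:126024409-126024658, plus strand) lay inside the gene as given below (126023441 to 126044975). Its matches are therefore not upstream of the gene end from which the Csf3r peak distances were measured. The stricter NF-kB pattern, GGGNNTTTCC, was held by 1.41% of all promoters and, of the 4, by Csf1, where it read GGGACTTTCC on the strand opposite to the gene. This match lay 154 to 145 bases before the Csf1 start, 56 bp beyond the edge of the R848 peak. A looser NF-kB pattern, GGGANNNNCC, was held by 17.6% of all promoters. It matched 3 times in Csf1, where 2 of the matches overlap the stricter one, and once in Csf3r. The 2 matches to the GC box GGGCGG (32.7% of all promoters) in Csf1 lay inside the peak, and Csf2 held 1. The PU.1 pattern GAGGAAG (10.6%) matched once each in Csf3r and Csf2rb2, and the C/EBP pattern TTGCNNAA (9.56%) once in Csf2. The AP-1 pattern TGANTCA (6.75%) and the interferon-response pattern GAAANNGAAA (2.98%) were found in none of the 4 windows. Each window was set by the start in the RefSeq table, which for Csf2 is the gene end at 54249899. Bases inside Csf2 were not searched, so a promoter at another start would be missed, and a pattern not found here may lie there. A match describes the letters and is no evidence of binding.

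Csf1, the M-CSF gene on chromosome 3 (107741048 to 107760469), had the most peaks of the family, 4 in the R848 list and 5 in the untreated list, and none of them overlapped. Over all peaks within reach of a protein-coding gene, 66.9% of R848 and 79.8% of untreated peaks overlapped none of the other list. The R848-only peaks of Csf1 included 1 at the gene start. It spanned 107760274 to 107760558 with its summit 95 bp inside the gene, a fold of 3.72 and 8 tags. Of all R848 peaks, 46.1% had a larger fold, so it was of ordinary strength. The strongest Csf1 peak of the R848 list lay outside the gene, 22991 bp upstream of the start (107783211 to 107783755), with 10 tags and a fold of 4.26. The other R848 peaks lay inside the gene, at 107741985 to 107742498 with 7 tags and at 107752775 to 107752988 with 8 tags.

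The 5 untreated peaks of Csf1 had 5 to 7 tags. The strongest, 12473 bp beyond the 3' end of the gene (107728491 to 107728727), had 7 tags and a fold of 4.06, and 21.7% of untreated peaks had a larger fold. Inside the gene lay a peak at 107744467 to 107744678 with a fold of 3.54 and another at 107750135 to 107750334 with a fold of 3.37, with 6 tags each. The first was separated by 1969 bp, and the second by 2441 bp, from the nearest R848 peak of the gene. The remaining 2 lay 41011 and 46063 bp upstream of the start, with folds of 3.92 and 2.94. The untreated list thus held no peak at the Csf1 start, where its nearest peak to either gene end was 3498 bp from the 3' end. At least 4 R848 peaks were found at 9% of protein-coding genes and at least 5 untreated peaks at 15.5%. Among all protein-coding genes, 25 others had the same counts of R848-only, shared and untreated-only peaks, the closest likeness possible over the 2 libraries; the first in alphabetical order were AW209491, Afap1l2 and Chst15.

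Il34, the gene of the second Csf1r ligand (chromosome 8, 110741829 to 110805949), had no peak in either list. The nearest R848 peak lay 113827 bp away and went to St3gal2. The nearest untreated peak lay 41063 bp away, 206 bp from an end of Sf3b3, with 5 tags. Of protein-coding genes, 19.8% had no peak in either list.

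Csf1r, the M-CSF receptor gene on chromosome 18 (61105572 to 61131139), had 3 R848 peaks and 1 untreated peak, all inside the gene. At least 3 R848 peaks were found at 16.9% of protein-coding genes. Csf1r held the single site of the family found in both lists. At this site the R848 peak (61108328 to 61108806, 479 bp wide) had a fold of 4.68 and 15 tags, against a fold of 3.05 and 5 tags in the untreated peak (61108477 to 61108676, 200 bp wide). The summits lay 3067 bp (R848) and 2941 bp (untreated) inside the lower-coordinate end of the gene, 126 bp apart. The R848 peak had the largest fold, pileup and -log10 q (4.82) of the family's 12 R848 peaks, and 20.1% of all R848 peaks had a larger fold. The untreated peak was among the weaker ones, since 69.0% of untreated peaks had a larger fold.

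Scaled by the depth ratio, the tag ratio at this Csf1r site, R848 over untreated, was 2.14, with an exact 95% interval of 0.738 to 7.52 that covers counting error only. Over the 11633 shared sites with both pileups recovered, the median of this ratio was 0.95, and 4.96% of sites had a larger one. The ratio of the folds, which use the local background (2.42 tags R848, 0.968 untreated) and are not scaled for depth, was 1.53. Its median over these sites was 1.07, and 16.9% of them had a larger one. The shares of 4.96% and 16.9% were taken over shared sites of any pileup. Sites with as few tags as the Csf1r site were not ranked apart, so the shares do not show how unusual it is among those. The interval of the tag ratio at Csf1r includes 1. An enhancer within an intron, known as FIRE, is a textbook element of Csf1r. The sources used here do not place it, and the shared site was not matched to it.

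The other Csf1r peaks of the R848 list were R848-only. One lay at the lower-coordinate end of the gene (61105644 to 61105919, summit 205 bp inside), with 12 tags and a fold of 3.87, the second largest pileup among the family's peaks. The other (61129179 to 61129378) lay 1946 bp inside the higher-coordinate end, with 7 tags and a fold of 3.39. The local background was 2.36 tags at the first peak and 2.42 at the shared one, both above the genome-wide 1.36 of the R848 library, so their folds are lower for their tags than elsewhere. In the untreated list, a peak of 11 tags and a fold of 6.10 lay 3063 bp beyond the higher-coordinate end of Csf1r (61134011 to 61134383). It had a larger fold than any untreated peak of the family, had no R848 counterpart and went to Hmgxb3, whose nearer end is 138 bp from Csf1r.

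**Figure D1:**
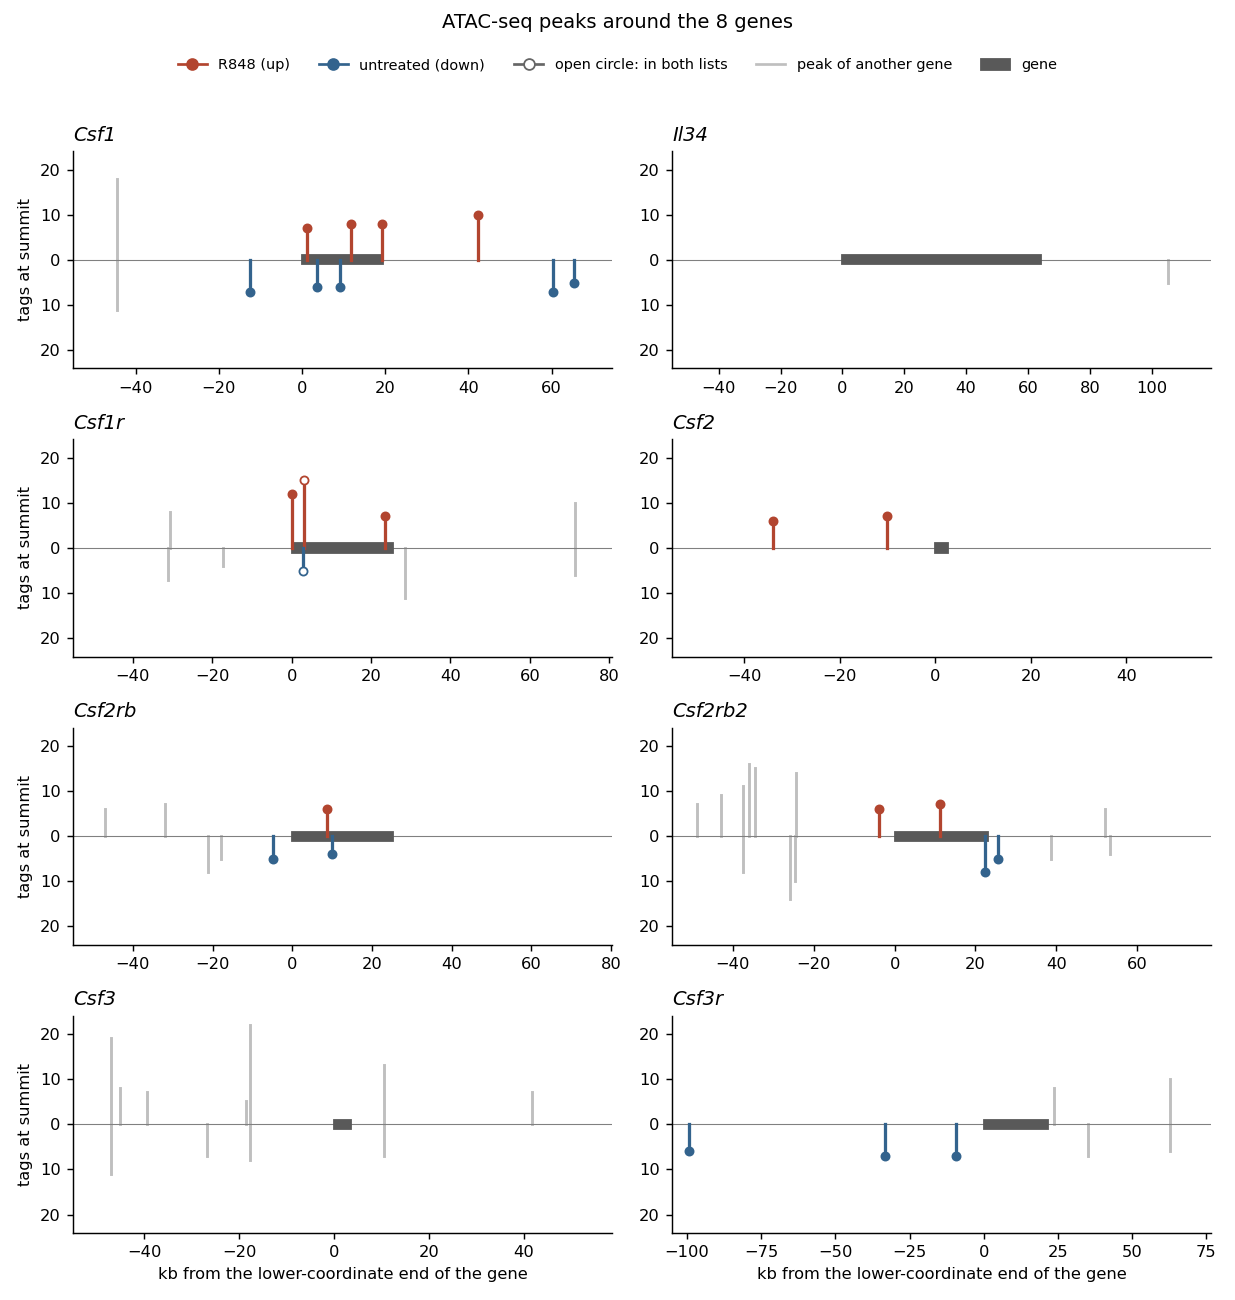
Peaks around each gene, with the distance from the lower-coordinate end of the gene in kb on the horizontal axis and the tags at the summit on the vertical axis (R848 upwards in red, untreated downwards in blue). Grey lines are peaks within 50 kb that went to another gene, and open circles mark the Csf1r site in both lists (15 tags with R848, 5 tags untreated); Il34 and Csf3 have no peak of their own.

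Csf2, the GM-CSF gene on chromosome 11 (54247270 to 54249899), had 2 R848 peaks and no untreated peak. Both lay beyond the 3' end of the gene. One was 10099 bp away (54236973 to 54237305), with 7 tags and a fold of 3.39, and the other 33857 bp away (54213329 to 54213528), with 6 tags and a fold of 2.94. Within the R848 list, 50.5% of peaks had a larger fold than the first and 87.7% a larger fold than the second. The nearest untreated peak lay 76801 bp from a Csf2 end. On the other side, 15186 bp from Csf2, lies Il3, the gene of interleukin-3, which had no peak in either list. Of protein-coding genes, 31.5% had at least 2 R848 peaks and 30.5% had no untreated peak.

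The beta chain genes lie side by side on chromosome 15, 20079 bp apart, and are near-identical paralogs, so reads from one may have been placed on the other. Csf2rb (78325800 to 78351001) had 1 R848 peak of 6 tags and a fold of 2.73 (78334375 to 78334574), against 2 untreated peaks of 5 and 4 tags. At least 1 R848 peak was present at 63.1% of genes and at least 2 untreated peaks at 44.1%. The R848 peak and the weaker untreated peak (78335720 to 78335959, fold 2.54) both lay inside the gene, 1146 bp apart, the smallest gap among the family's non-overlapping peaks. The stronger untreated peak (78320935 to 78321252, fold 3.05) lay 4793 bp outside the gene.

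Csf2rb2 (78282507 to 78305721) had 2 R848 and 2 untreated peaks at different places. The R848 peaks lay 3864 bp beyond the 3' end (78278522 to 78278982, fold 2.97, 6 tags) and inside the gene (78293702 to 78293901, fold 3.39, 7 tags). The untreated peaks lay on both sides of the gene start. The one 941 bp inside (78304595 to 78304794) had 8 tags and a fold of 4.57, the strongest untreated peak of the family, and 12.9% of untreated peaks had a larger fold. The one 2332 bp upstream (78307930 to 78308129) had a fold of 3.05 and 5 tags. At least 2 R848 peaks were found at 31.5% and at least 2 untreated peaks at 44.1% of protein-coding genes. Over all peaks within reach of a protein-coding gene, 66.9% of R848 and 79.8% of untreated peaks overlapped none of the other list. For comparison, the alpha chain gene Csf2ra, which was in the list of other growth factor genes, had 5 R848 peaks, all shared, and 9 untreated peaks, of which 5 were shared. Its strongest peak, 17448 bp from a gene end, held 68 tags in the R848 list and 31 tags in the untreated list. The peak nearest to a Csf2ra end, at 1163 bp (R848) and 1147 bp (untreated), held 24 and 12 tags.

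Csf3, the G-CSF gene on chromosome 11 (98700183 to 98703631), had no peak of its own, in a stretch where its neighbours had several. Within 50 kb lay 7 R848 and 4 untreated peaks. The nearest was a shared peak 7134 bp (R848) and 6970 bp (untreated) from Csf3, with 13 tags and a fold of 5.07 with R848, against 7 tags and a fold of 4.06 untreated. It went to Med24, whose nearer end is 966 bp from Csf3. The strongest R848 peak of this stretch lay 36 bp from an end of Psmd3, a proteasome subunit gene, with 22 tags and a fold of 8.65. The strongest untreated peak went to Gsdma2, 47026 bp from Csf3, with 11 tags and a fold of 6.10. Each overlapped a peak of the other list. The absence of a Csf3 peak means that no called peak lay nearer to Csf3 than to another gene. Such an absence from both lists was found for 19.8% of protein-coding genes.

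Csf3r, the G-CSF receptor gene on chromosome 4 (126023441 to 126044975), had no R848 peak and 3 untreated peaks. All lay before the gene, at distances of 9261, 33205 and 99499 bp. Their pileups were 7, 7 and 6 tags and their folds 4.06, 4.06 and 3.56. The farthest was just inside the limit of 100 kb, and within 20 kb 1 remained. The nearest R848 peak lay 2057 bp beyond the other end of Csf3r, 104 bp from an end of Mrps15, with 8 tags. At least 3 untreated peaks were found at 29.9% of protein-coding genes, and no R848 peak with at least 3 untreated peaks at 5.16%.

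**Figure D2:**
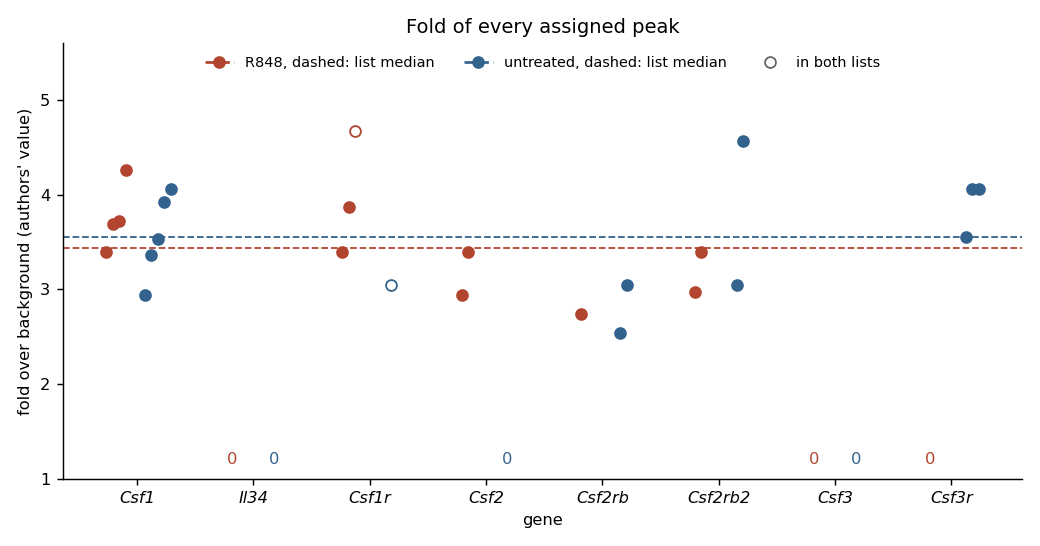
Fold over background of every peak of the 8 genes, as the authors' caller gave it, with R848 peaks in red left of untreated peaks in blue; dashed lines are the medians of the whole lists (3.44 for R848, 3.56 untreated), and a 0 marks a gene with no peak. The largest folds are 4.68 (R848, Csf1r) and 4.57 (untreated, Csf2rb2). Folds are not scaled for depth, which limits comparison between the lists.

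Over the whole family, 11 of 12 R848 peaks were R848-only (91.7%, 95% Wilson interval 64.6 to 98.5), against a background of 66.9% of all R848 peaks within reach of a protein-coding gene. In the untreated list 12 of 13 peaks were untreated-only (92.3%, 66.7 to 98.6), against a background of 79.8%. With both lists cut to the same length, 12 R848-only and 5 untreated-only peaks were left, and with every gene within 50 kb counted the shares were 70.0% and 66.7%. Cutting the untreated list removes possible partners of R848 peaks at any gene. The shares over all peaks under these settings were not computed, so these values have no background beside them. Among peaks with a -log10 q under 5, a limit that all 25 peaks fell below, used here as a restriction after their values were seen, the background was 78.5% for R848 and 83.9% for untreated peaks. Both of these lie within the family's intervals, which cover counting error only. An R848-only peak was present at 5 of 8 genes, against 47.2% of all protein-coding genes, and an untreated-only peak at 4 of 8, against 56.9%. The median number per gene was 1.5 R848-only peaks in the family and 0 over all genes, and 1 untreated-only peak in both.

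No peak of the family reached a -log10 q of 5, which 20.2% of R848 and 7.68% of untreated peaks within reach did. A -log10 q of 1.3, a false discovery rate of about 5%, was reached by 5 of 12 R848 peaks (3 of Csf1 and 2 of Csf1r) against a background of 56.8%, and by 7 of 13 untreated peaks (3 of Csf1, 3 of Csf3r and 1 of Csf2rb2) against 64.4%. The peaks of Csf2 and Csf2rb and the R848 peaks of Csf2rb2 were all under it. Summits within 1 kb of a gene end were found for 2 of 12 R848 peaks (Csf1 and Csf1r), with a background of 27.6%, and for 1 of 13 untreated peaks (Csf2rb2), with a background of 13.1%. Inside their gene lay 8 of 12 R848 peaks, with a background of 46.7%, and 5 of 13 untreated peaks, with a background of 36.8%.

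The 11 R848-only peaks had 6 to 12 tags, which correspond to 4.27 to 8.55 tags at the depth of the untreated library, where 4 tags were the fewest called. For 10 of these 11 the lower end of the exact Poisson interval, scaled in this way, lay under 4 tags; the Csf1r peak at the lower-coordinate gene end, with 12 tags, was the exception. The 12 untreated-only peaks had 4 to 8 tags, or 5.62 to 11.2 at the depth of the R848 library, where 5 tags were the fewest called, and for all 12 the lower end lay under 5. These lower ends follow from the pileup alone. A peak of any gene at the list median, 8 tags (R848) or 7 tags (untreated), has a lower end of 2.46 or 3.95, also under the limit. The share over all peaks was not computed, so these counts are no trait of the family. The tags of the other library at these 23 places were not at hand, and the depth ratio assumes that tags were extended alike, so these values show how near the peaks lie to the calling limit and not whether the libraries differed there.

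Genes that act with the family were described by 3 lists. The list of 26 other haematopoietic growth factor and receptor genes had 25 R848-only of 41 R848 peaks (61.0%) and 55 untreated-only of 71 untreated peaks (77.5%), against 66.9% and 79.8% over all genes. Kit, the stem cell factor receptor, had 5 R848-only and 7 untreated-only peaks, Flt3, a receptor of progenitors and dendritic cells, had 3 and 0, Il7 had 3 and 3, and Il6ra, an interleukin-6 receptor chain, had 2 and 0. Osmr, the oncostatin M receptor gene, had 2 R848-only and 7 untreated-only peaks, Il7r 0 and 6, and Il3ra 1 and 5. R848-only peaks lay at 14 of the 26 genes, against 47.2% of all genes, and untreated-only peaks at 16 of the 26, against 56.9%.

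The 36 genes of signalling below the receptors had 59 R848-only of 104 R848 peaks (56.7%) and 58 untreated-only of 102 untreated peaks (56.9%), against 66.9% and 79.8% over all genes. An R848-only peak lay at 31 of 36, against 47.2% of all genes, and an untreated-only peak at 24 of 36, against 56.9%. The Src family kinase gene Lyn had 4 peaks of the R848-only and 2 of the untreated-only kind. The phosphoinositide 3-kinase subunit gene Pik3r1 had 4 and 2, and the phospholipase gene Plcg2 had 4 and 0. In the other direction, the adaptor gene Gab2 had 2 R848-only and 14 untreated-only peaks, Pik3cg 3 and 6, and Jak1 1 and 3.

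The list of 11 transcription factor genes known to act at Csf1r held 37 R848-only of 55 R848 peaks (67.3%) and 36 untreated-only of 54 untreated peaks (66.7%), against 66.9% and 79.8% over all genes. All 11 had an R848-only peak, against 47.2% of all genes, and 10 of them an untreated-only peak, against 56.9%. Cebpb had 8 R848-only and 3 untreated-only peaks, Runx1 7 and 3, Spi1 (PU.1) 5 and 0, and Egr2 3 and 2. Mitf had 3 R848-only and 9 untreated-only peaks, Maf 3 and 8, and Irf8 1 and 3. The median fold of R848 peaks was 3.39 in the CSF family, against 4.03 in the growth factor list, 3.93 in the signalling list, 3.85 in the transcription factor list and 3.78 over all genes. The median fold of untreated peaks was 3.54 in the CSF family and 3.56 in each of the other lists and over all genes.

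**Figure D3:**
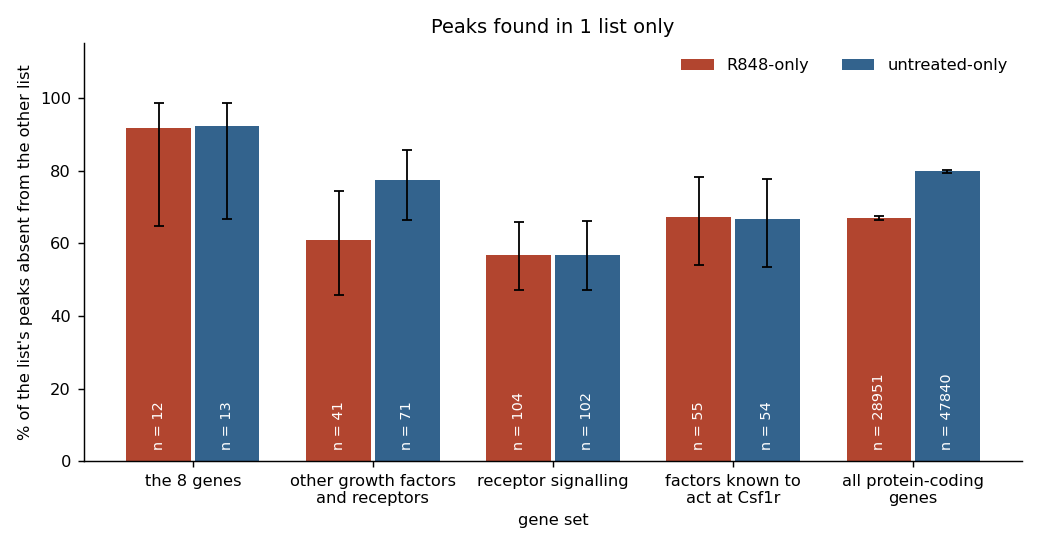
Percentage of each gene set's peaks that no peak of the other list overlapped, R848 in red and untreated in blue, with 95% Wilson intervals that cover counting error only and the number of peaks in each bar. The intervals of the 8 genes (64.6 to 98.5% for R848, 66.7 to 98.6% untreated) include the values over all protein-coding genes (66.9% and 79.8%).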

How the data were processed

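ATAC-seq had been done on 1 R848 and 1 untreated library of mouse BMDMs. Per the submitters' processing notes, bcl2fastq 2.19, Bowtie2 2.2.6 and MACS2 2.2.7.1 were used on mm10, without settings; the filters on reads, duplicate handling, insertion shift and depth are not given in the sources used here. Each deposited list gives, per peak, the fold (a ratio of pileup to background), the −log10 p and −log10 q, a score and other values that are positions in bp. The deposited score was not used.

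Pileups were solved from the deposited fold, (pileup + 1)/(background + 1), and the Poisson −log10 p, within 0.1%, for 99.9% of peaks in each list. Peaks were shared at an overlap of at least 1 bp. Genes were the 21887 protein-coding RefSeq genes. The gene table gives ends without exons, so peaks inside a gene were not placed in exons or introns. The software was scipy 1.17.1, pandas 2.3.3 and numpy 2.4.6 under Python 3.11.15, with matplotlib 3.10.9 for plots, and assignment, overlap and pileup recovery were tested on simulated data. No test between groups was run. All 8 genes are named; other lists name the 4 genes with the most R848-only and the 4 with the most untreated-only peaks, except 1 gene that is not reported here, and Csf2ra, Il3 and the marker genes named were picked after their counts were seen. The members and lists were chosen with earlier results of these data known.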

Additional observations from a re-analysis of the deposited data

How the results depend on the processing

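No paired analysis was possible because each group had 1 library. Assignment to the gene that holds the summit, an overlap required over most of the shorter peak (0.5 of its length) and a gap of up to 500 bp left the family's counts at 11 R848-only and 12 untreated-only peaks. They were 9 and 8 with gene ends within 20 kb, and 8 and 8 without Csf2rb and Csf2rb2. With every gene within 50 kb counted, they were 21 (70.0% of R848 peaks) and 18 (66.7% of untreated peaks). With −log10 q limits, the counts were 5 and 7 at 1.3 (100% each) and 0 and 0 at 5, where no share could be given. With lists of equal length they were 12 and 5 (100% each). The untreated peak of the shared Csf1r site dropped out, as did 3 untreated-only peaks of Csf1, 2 of Csf2rb and 1 each of Csf2rb2 and Csf3r. That Csf1r peak, with a −log10 q of 0.783, was also removed by the q limit of 1.3. The shares over all peaks under these alternative settings were not computed, so the 100% values are not read as a trait of the family. R848-only peaks of the other growth factor list numbered 14 with gene ends within 20 kb, 49 with every gene within 50 kb, and 13 and 7 at the q limits of 1.3 and 5. Those of the signalling list numbered 41 with gene ends within 20 kb and 113 with every gene within 50 kb. At the q limits of 1.3 and 5 the signalling list had 39 and 24. R848-only peaks of the transcription factor list numbered 22 with gene ends within 20 kb and 39 with every gene within 50 kb. At the q limits of 1.3 and 5 this list had 25 and 8. The nearest transcription start was not run as an alternative, since a start was at hand for 4 of the 8 genes. Low pileups limit every statement on single peaks.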
